A study of Mus musculus with 13 samples.

Results

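Homeostatic microglia marker genes are transcripts that brain macrophages express at high levels in the resting adult brain. The 9 described here were Tmem119, Sparc, Olfml3, Selplg, Slc2a5, Gpr34, Crybb1, Slco2b1 and Golm1, a list of gene names drawn up with earlier results of these data known, out of 52636 genes counted in each mouse. RNA was sequenced from brain-resident myeloid cells sorted from the cortex and hippocampus of 13 mice aged 14 to 15 months. The sort kept live cells that were CD11b+ and CD45+ and left out Ly6g+ neutrophils and Ccr2+ monocytes. The 2 groups were 7 PS2APP;Trem2wt mice, of which 5 were female and 2 male, and 6 PS2APP;Trem2ko mice, of which 5 were female and 1 male, labelled PS2APP and PS2APP;Trem2KO and called Trem2wt and Trem2ko mice from here on. All 13 mice carried the PS2APP transgenes, mutant human presenilin 2 and mutant human amyloid precursor protein, and so developed β-amyloid plaques. The Trem2ko mice were homozygous for the Trem2tm1(KOMP)Vlcg null allele, which was made on C57BL/6N and crossed into PS2APP on C57BL/6J, and littermates were used between the groups where possible. No mouse without the PS2APP transgenes was among these samples, so the comparison concerns loss of Trem2 in plaque-bearing brain and not the response to plaques itself.

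Microglia are the resident macrophages of the brain, and their resting state depends on signals such as TGF-β and CSF1 receptor ligands. In models of β-amyloid pathology, microglia that gather at plaques are known to raise lipid-handling and lysosomal genes and to lower many of their resting markers, and Trem2, a lipid-sensing receptor that signals through Tyrobp, is required for much of the rise. The 9 genes code for proteins of several kinds. Tmem119 and Selplg are surface proteins, Gpr34 is a G protein-coupled receptor for lysophosphatidylserine, Slc2a5 and Slco2b1 are membrane carriers, Sparc and Olfml3 are secreted, Golm1 is a Golgi membrane protein, and Crybb1 is a β-crystallin best known from the eye lens.

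Total counts ranged from 26120961 to 114857155 (median 35201380) in the Trem2wt mice and from 41567025 to 120569609 (median 55371726) in the Trem2ko mice, and every member had between 2458 and 843999 counts in every mouse. Levels are given as nRPKM, reads per kilobase of gene and per unit of sequencing depth, scaled by size factors, so that they can be compared between mice. A comparison between genes also depends on the gene lengths used, which the sources do not give. They were not the exon lengths of GENCODE M21, 4272 bases for Selplg and 2315 for Tmem119. In Trem2wt replicate 1, Selplg had 250890 counts at 2569 nRPKM and Tmem119 187253 counts at 1586 nRPKM. All orders and ranks of genes below are by nRPKM and could differ with other lengths. Trem2 was at 818.4 to 1244 nRPKM in the Trem2wt mice and at 0.3926 to 2.292 in the Trem2ko mice, as labelled. The 6 microglial markers summed to 4953 to 6344 nRPKM in the Trem2wt mice and to 4695 to 5844 in the Trem2ko mice, and none was at 0 in all mice. Among markers of other cells, 7 neutrophil genes summed to 14.9 to 265 nRPKM in the Trem2wt mice, where male replicate 2 was the highest, and to 0.143 to 46.3 in the Trem2ko mice, and 10 border macrophage genes summed to 53.7 to 76.9 and 60.8 to 89.9. Astrocyte (63.2 to 82.6 and 68.6 to 88.6), oligodendrocyte (55.9 to 73.8 and 51.1 to 66.3), endothelial (9.72 to 26.4 and 11.1 to 18.3), monocyte (2.87 to 25.2 and 3.5 to 20.2) and neuronal sums (3.64 to 11.5 and 3.99 to 11.3) were in the same low range in both groups, and the sums of 12 dissociation-response genes were 170 to 493 and 185 to 612. Of all these markers Cx3cr1 (microglia) and Flt1 (endothelial cells, log2 fold change -2.20, edgeR adjusted p = 0.000336) were called, both lower in Trem2ko mice. Flt1 was not typical of its list: of the 8 endothelial genes 5 had a log2 fold change below 0 and 3 above, with a median of -0.09. In bulk RNA, fewer cells of a type and less RNA per cell cannot be told apart.

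None of the 9 homeostatic genes passed the test between the genotypes. In edgeR's quasi-likelihood test, with Benjamini-Hochberg adjustment over 17086 genes and an adjusted p of 0.05 or less as the threshold, 0 of 9 were called lower and 0 were called higher, with adjusted p-values from 0.216 to 0.921. At an unadjusted p of 0.05 or less there were 2, Sparc and Slco2b1, both lower in Trem2ko mice, a level that 14.8% of all genes tested reached in either direction. At the adjusted threshold, 1.53% of all genes were called lower (262 genes) and 0.503% higher (86 genes). Of 302 genes with a mean level at least that of the lowest member, 11 were called lower and 0 higher, or 3.64%. The median log2 fold change (Trem2ko against Trem2wt) was -0.02 over the members, 5 of them below 0 and 4 above, and 0.00389 over all genes tested. The 95% intervals of the 9 reached a change of 1.5-fold at most, that of Crybb1. With voom+limma and with DESeq2, 0 of 9 were called as well. The members differed from one gene to another far more than between the genotypes, as the plot of levels by mouse shows.

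**Figure D1:**
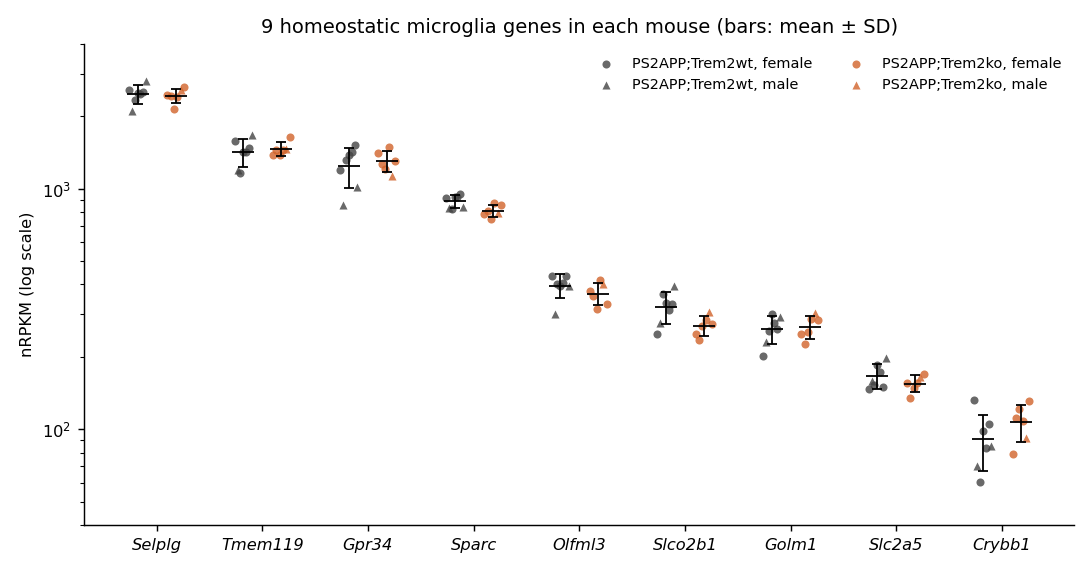
Level of each member in each of the 13 mice on a log nRPKM axis, with the genes ordered by their Trem2wt mean; circles are females, triangles males, grey Trem2wt, orange Trem2ko, and the bars mean ± SD (n = 7 and n = 6). The genotypes overlap for every gene, and the levels run from about 60.11 nRPKM (Crybb1) to 2811 nRPKM (Selplg).

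Selplg was the most abundant member by nRPKM. It codes for P-selectin glycoprotein ligand 1, through which leukocytes roll on selectins, and lies at chr5:113818536-113832644 on the minus strand (GRCm38; coordinates are those of GENCODE M21). Its level in the Trem2wt mice was 2102 nRPKM at the lowest, 2493 at the median and 2811 at the highest (mean 2474 ± 217, SD, n = 7), and in the Trem2ko mice 2154, 2441 and 2637 (mean 2440 ± 166, n = 6). The 6 Trem2ko mice lay inside the Trem2wt range. Between the genotypes the log2 fold change was -0.02 with an SE of 0.07 and a 95% interval from -0.17 to 0.125 (edgeR adjusted p = 0.921). By its Trem2wt mean Selplg ranked 9 of all genes.

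Tmem119, a transmembrane protein used to tell microglia from other macrophages, lies 18020 bases from Selplg on the same strand, at chr5:113793729-113800516. It was at 1163, 1421 and 1668 nRPKM (lowest, median, highest) in the Trem2wt mice (mean 1420 ± 187, n = 7) and at 1383, 1453 and 1644 in the Trem2ko mice (mean 1464 ± 95.4, n = 6). Here too all Trem2ko mice lay inside the Trem2wt range, 5 of them close together and replicate 6 apart from them. Its log2 fold change was 0.04 with an SE of 0.09 and an interval from -0.14 to 0.22 (edgeR adjusted p = 0.877). Tmem119 ranked 21 of all genes.

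Gpr34, a receptor for lysophosphatidylserine, lies at chrX:13632089-13640858 on the plus strand, inside Cask, which runs on the opposite strand and was at a mean of 8.06 nRPKM. Gpr34 was at 859.6, 1313 and 1522 nRPKM in the Trem2wt mice (mean 1244 ± 236, n = 7) and at 1133, 1285 and 1494 in the Trem2ko mice (mean 1304 ± 133, n = 6). The lowest value of each group came from a male. This gave a log2 fold change of 0.07 with an SE of 0.12 and an interval from -0.18 to 0.31 (edgeR adjusted p = 0.85).

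Of the 2 secreted proteins, Sparc, a matricellular glycoprotein that binds collagen and calcium, was the more abundant. It lies at chr11:55394500-55423183 on the minus strand. Its level was 821.8, 912.4 and 949.7 nRPKM in the Trem2wt mice (mean 886.7 ± 52.4, n = 7) and 749.9, 799.8 and 876.5 in the Trem2ko mice (mean 810.9 ± 46.3, n = 6). All 6 Trem2ko mice lay below the Trem2wt median and 4 of them below every Trem2wt mouse, while the other 2 lay within the Trem2wt range. The fitted log2 fold change was -0.13 with an SE of 0.06 and an interval from -0.25 to -0.0074. The unadjusted edgeR p was 0.0392 and the adjusted p 0.301, and exchanging the genotype of the mice in every possible way gave p = 0.0233 (exact permutation test, two-sided, unadjusted). In 22 alternative fits, with other tools, settings or sets of mice, the change of Sparc ranged from -0.156 to -0.107. The unadjusted p of these fits was 0.05 or less in 11 of 22 and reached 0.152, with an adjusted p from 0.195 to 0.51. Sparc had the narrowest spread of the members, a coefficient of variation of 5.91% in the Trem2wt mice and 5.7% in the Trem2ko mice.

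Olfml3, an olfactomedin-like secreted protein, lies at chr3:103722222-103738001 on the minus strand. It was at 302.5, 403 and 434.9 nRPKM in the Trem2wt mice (mean 395.6 ± 44.6, n = 7) and at 316.1, 366.3 and 418.7 in the Trem2ko mice (mean 366.7 ± 39.5, n = 6). The lowest Trem2wt value, from male replicate 2, stood apart from the other 6, which were at 392.4 or more. Set against the Trem2wt mice, the log2 fold change was -0.11 with an SE of 0.09 and an interval from -0.30 to 0.08 (edgeR adjusted p = 0.612). In the 5 females of each genotype alone, the fold change of Olfml3 was -0.21 on the log2 scale (edgeR adjusted p = 0.268).

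Of the 2 carriers, Slco2b1 had the larger difference. It codes for an organic anion transporter of the plasma membrane and lies at chr7:99657804-99711340 on the minus strand. Its level was 248.8, 332.6 and 394.6 nRPKM in the Trem2wt mice (mean 323.7 ± 49.8, n = 7) and 236, 271.4 and 306 in the Trem2ko mice (mean 269.7 ± 25.1, n = 6). Every Trem2ko mouse lay below the Trem2wt median, but only 1 lay below all Trem2wt mice, because Trem2wt replicates 1 and 2 were at 248.8 and 277.3. On the log2 scale the fold change was -0.27 with an SE of 0.10 and an interval from -0.48 to -0.05. The unadjusted edgeR p was 0.0187, the adjusted p 0.216 and the exact permutation p 0.0396. In the 22 alternative fits the change ranged from -0.32 to -0.21, with an unadjusted p of 0.0438 or less in each and an adjusted p from 0.0836 to 0.376. Antisense genes Gm15635 (6.88 nRPKM) and Gm34280 (5.57) overlap Slco2b1 and share 5.89% of its 50-base exon stretches, so in libraries that do not mark strand their reads cannot be told apart there.

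Slc2a5, the fructose carrier GLUT5, lies at chr4:150119283-150144169 on the plus strand. It was at 147.1, 159.2 and 198.7 nRPKM in the Trem2wt mice (mean 166.4 ± 19.5, n = 7) and at 134.4, 155.6 and 169.9 in the Trem2ko mice (mean 154.8 ± 12.6, n = 6). The lowest value was from a Trem2ko mouse and the highest from a Trem2wt mouse, and the groups overlapped between 147.1 and 169.9. In edgeR the log2 fold change was -0.11 with an SE of 0.08 and an interval from -0.285 to 0.07 (edgeR adjusted p = 0.595).

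Golm1, a type II membrane protein of the Golgi, lies at chr13:59634626-59675811 on the minus strand. Its level was 201.4, 261.4 and 301.3 nRPKM in the Trem2wt mice (mean 260.1 ± 34.9, n = 7) and 226.8, 268.4 and 305.7 in the Trem2ko mice (mean 267.3 ± 29.5, n = 6), with the groups side by side. For Golm1 the log2 fold change was 0.04 with an SE of 0.10 and an interval from -0.17 to 0.245 (edgeR adjusted p = 0.908). The 3′ end of Golm1 overlaps Naa35 on the opposite strand (mean 23.9 nRPKM), which shares 28% of the 50-base exon stretches of Golm1, and reads from this stretch cannot be assigned in libraries that do not mark strand.

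Crybb1, a β-crystallin, lies at chr5:112255815-112269585 on the plus strand and was the lowest and most variable member. It was at 60.11, 85.4 and 131.7 nRPKM in the Trem2wt mice (mean 90.68 ± 23.8, n = 7) and at 78.58, 110.3 and 131.2 in the Trem2ko mice (mean 107.4 ± 19.3, n = 6). Of the Trem2ko mice 5 lay above the Trem2wt median and 1 below it, and the highest value of all came from a Trem2wt mouse. For Crybb1 the log2 fold change was 0.24 with an SE of 0.16 and an interval from -0.10 to 0.59 (edgeR adjusted p = 0.525). The coefficient of variation was 26.2% in the Trem2wt mice, the largest among the members, and 18% in the Trem2ko mice.

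Promoter sequences are shown for Slco2b1, Golm1 and Slc2a5, whose levels across mice are compared further on, and for Crybb1, the most variable member. They come from RefSeq on GRCm38.p6, whose table matched 6 of the 9 members, with 8 promoters, and each is written 5′ to 3′ from 250 bases before the start site to 20 bases from it on. Capitals mark GAGGAA, the core that the myeloid factor PU.1 recognises, or TATAAA, the TATA box, or their reverse complements. The windows are chr7:99711321-99711590 on the minus strand for Slco2b1, chr13:59675765-59676034 on the minus strand for Golm1, chr4:150119094-150119363 on the plus strand for Slc2a5 and chr5:112255570-112255839 on the plus strand for Crybb1.
Slco2b1: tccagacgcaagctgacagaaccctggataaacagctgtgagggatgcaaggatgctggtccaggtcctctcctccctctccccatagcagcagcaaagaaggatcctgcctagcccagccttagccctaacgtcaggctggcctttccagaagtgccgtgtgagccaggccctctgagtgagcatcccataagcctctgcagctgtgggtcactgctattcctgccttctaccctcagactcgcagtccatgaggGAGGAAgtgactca
Golm1: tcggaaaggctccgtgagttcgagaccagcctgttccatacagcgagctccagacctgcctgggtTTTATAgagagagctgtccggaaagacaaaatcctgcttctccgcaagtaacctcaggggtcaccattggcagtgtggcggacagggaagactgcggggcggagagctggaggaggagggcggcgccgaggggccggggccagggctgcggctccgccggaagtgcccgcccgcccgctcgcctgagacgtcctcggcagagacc
Slc2a5: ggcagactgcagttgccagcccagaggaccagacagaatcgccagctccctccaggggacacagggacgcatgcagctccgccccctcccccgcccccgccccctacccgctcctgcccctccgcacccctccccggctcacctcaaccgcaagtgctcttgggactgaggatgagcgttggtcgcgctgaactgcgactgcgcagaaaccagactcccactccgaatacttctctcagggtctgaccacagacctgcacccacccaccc
Crybb1: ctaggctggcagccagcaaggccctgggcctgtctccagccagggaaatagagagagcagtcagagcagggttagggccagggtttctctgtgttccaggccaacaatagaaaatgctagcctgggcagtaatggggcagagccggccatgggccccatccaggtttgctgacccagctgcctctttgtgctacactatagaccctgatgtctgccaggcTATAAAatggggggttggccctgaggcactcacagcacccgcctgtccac
The letters differed between the 4 genes. Searched on both strands from 250 bases before the start to 50 after it, GAGGAA is in 28.1% of 32544 promoters and TATAAA in 13.6%. The Slco2b1 promoter shown holds GAGGAA 6 bases after its start, overlapped by the longer PU.1 word AGGAAGT, which 9.27% of promoters hold. Its 2 other RefSeq promoters, 4498 and 15531 bases from the annotated gene start, hold GAGGAA as well, and no other matched member does. Crybb1 holds TATAAA 30 bases before its start, and Golm1 holds the reverse complement TTTATA 185 bases before it. Slc2a5 has neither motif in its window. All 4 were above the median promoter's 53% G or C, Golm1 at 67% with 30 CpG, Slc2a5 at 65.3% with 15, Crybb1 at 58.3% with 2 and Slco2b1 at 57% with 5. A match describes letters only, and the data hold no measure of binding.

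As a group the members took 2.25, 2.64 and 2.76% of all counts (lowest, median, highest) in the Trem2wt mice and 2.37, 2.6 and 2.74% in the Trem2ko mice. The normalised values of the genotypes were free of overlap for 0 of the 9, against 1.64% of all genes tested. Ordered by mean nRPKM, the members ran Selplg, Tmem119, Gpr34, Sparc, Olfml3, Slco2b1, Golm1, Slc2a5 and Crybb1. In nRPKM, Selplg exceeded Tmem119, Sparc exceeded Olfml3, Golm1 exceeded Slc2a5 and Slc2a5 exceeded Crybb1 with no overlap of ranges in either genotype. Tmem119 and Gpr34 could not be ordered, since Tmem119 was the higher in only 4 of 7 Trem2wt and 4 of 6 Trem2ko mice. Slco2b1 was above Golm1 in 7 of 7 Trem2wt mice but in 4 of 6 Trem2ko mice, and their ranges overlapped in both genotypes.

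Other genes of the resting state were set beside the members. Of 27 further homeostatic genes, all tested, 1 was called lower and 0 higher. By comparison, 1.53% of all genes tested were called lower and 0.503% higher, and 3.64% of the 302 abundant genes were called. Of the 27, 17 had a log2 fold change below 0 and 10 above, and the median was -0.03. The gene called was Cx3cr1, the receptor through which microglia sense neuronal fractalkine. Cx3cr1 was at 1266, 1553 and 1677 nRPKM in the Trem2wt mice (mean 1526 ± 144, n = 7) and at 894, 1086 and 1280 in the Trem2ko mice (mean 1088 ± 127, n = 6), so that the highest Trem2ko mouse was just above the lowest Trem2wt mouse. Its log2 fold change was -0.49 with an SE of 0.09 (edgeR adjusted p = 0.0067), and it passed the threshold in 22 of 22 alternatives. The 3 most abundant genes of this list were Cst3, a secreted protease inhibitor, P2ry12, the ADP receptor of resting microglia, and Csf1r, the receptor that microglia need to survive. Their log2 fold changes were -0.12 (SE 0.08) for Cst3, 0.00026 (SE 0.10) for P2ry12 and -0.18 (SE 0.10) for Csf1r, with edgeR adjusted p-values of 0.491, 0.999 and 0.437.

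Genes that microglia are known to raise at plaques moved in the same libraries. Of 20 such genes, 14 were called lower in Trem2ko mice and 0 higher, with a median log2 fold change of -1.47. The list was written with results of these mice known, so its count is no independent evidence of a direction. Among them Spp1, the secreted matrix protein osteopontin, was at 132 to 603 nRPKM (median 272) in the Trem2wt mice and at 5.07 to 25 (median 9.8) in the Trem2ko mice, with no overlap. Its log2 fold change was -4.78 with an SE of 0.49 (edgeR adjusted p = 6.74e-05). Dkk2, a secreted Wnt regulator, fell by 5.24 on the log2 scale (SE 0.40, adjusted p = 3.05e-06), and Gpnmb, a lysosomal and surface glycoprotein, by 3.36 (SE 0.47, adjusted p = 0.000914), both by edgeR. The lowest bound of any member's interval was -0.48, that of Slco2b1, as the plot of fold changes shows.

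**Figure D2:**
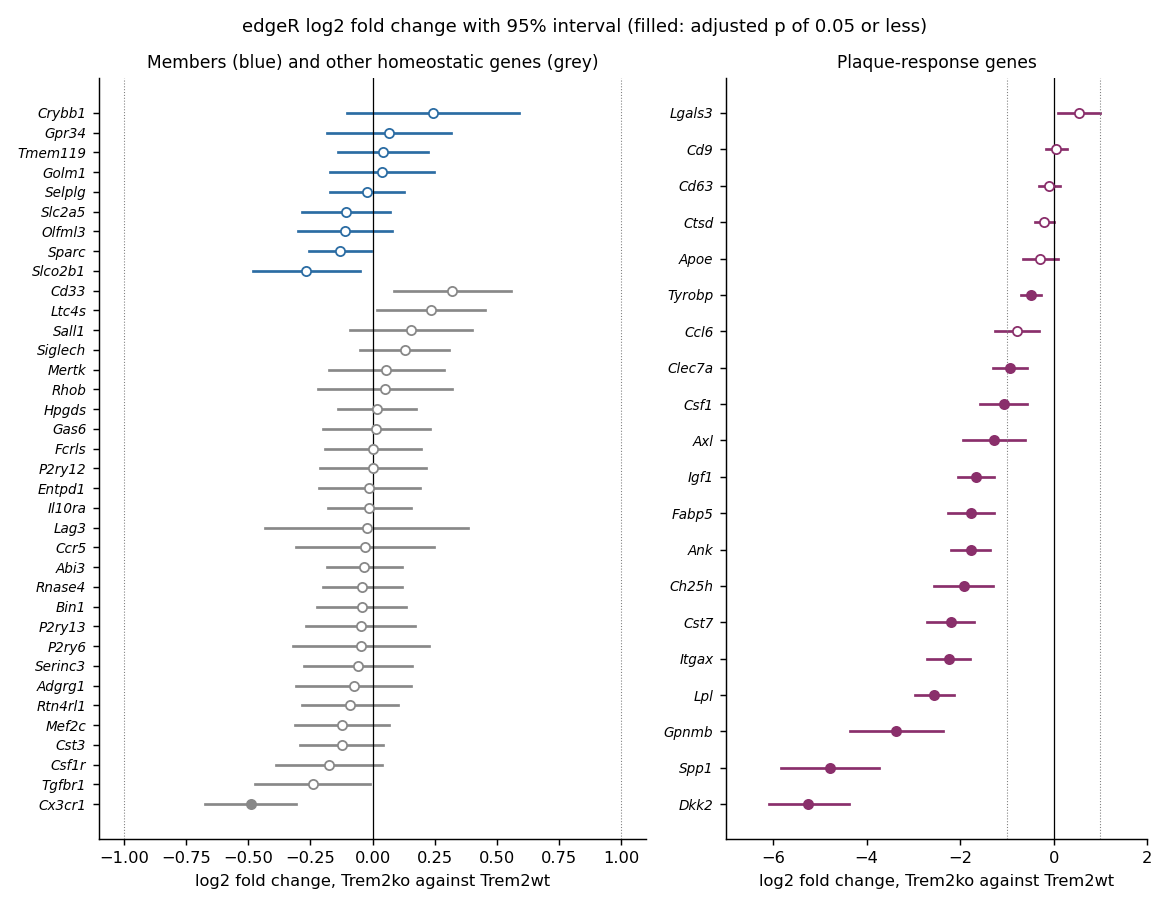
Log2 fold change of Trem2ko against Trem2wt mice from edgeR with its 95% interval, for the 9 members (blue) and 27 other homeostatic genes (grey) on the left and 20 plaque-response genes on the right; filled circles have an adjusted p of 0.05 or less and dotted lines mark a change of 2-fold. No member and 1 other homeostatic gene, Cx3cr1, is filled on the left, and 14 of 20 are filled on the right, where the axis is longer.

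The members were also compared with each other across the mice of one genotype. Over the 36 pairs of members the median Pearson r of log2(nRPKM + 0.1) was 0.34 in the Trem2wt mice and 0.33 in the Trem2ko mice, and 22 pairs were positive in both. Of these 72 relations 7 had an unadjusted exact permutation p of 0.05 or less and 0 after Benjamini-Hochberg adjustment over the 72, the smallest adjusted p being 0.1. An r of 0.7 or more in both genotypes was seen in 3 pairs, Tmem119 with Selplg, Slco2b1 with Golm1 and Slc2a5 with Golm1.

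Tmem119 and Selplg, the neighbours on chromosome 5, had r = 0.894 and rho = 0.929 in the 7 Trem2wt mice (exact permutation p = 0.00317 and 0.00675, adjusted 0.114 and 0.243). Without the 2 mice farthest from the median of Tmem119, r was 0.914. In the 6 Trem2ko mice r was 0.716 and rho 0.657 (exact permutation p = 0.154 and 0.175), and 0.967 without 2 mice. The mouse that was highest in one of them was also highest in the other in both genotypes.

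Slco2b1 and Golm1 had r = 0.964 and rho = 1 in the 6 Trem2ko mice (exact permutation p = 0.00139 and 0.00278, adjusted 0.1 and 0.2), with r = 0.874 without 2 mice. In the 7 Trem2wt mice r was 0.823 and rho 0.679 (exact permutation p = 0.0238 and 0.11), but r fell to 0.0888 without the 2 mice farthest from the median of Slco2b1, so there the relation rested on those mice. Slc2a5 and Golm1 had r = 0.775 in the Trem2wt mice and 0.871 in the Trem2ko mice (exact permutation p = 0.0395 and 0.0278, adjusted 0.412 for both), and rho = 0.821 and 0.771. Without 2 mice r was 0.594 and 0.829. For Slc2a5 and Slco2b1 r was 0.582 and 0.759 (exact permutation p = 0.173 and 0.0722). These 3 genes lie on different chromosomes. The most variable member, Crybb1, had an r with Golm1 of -0.276 in the Trem2wt mice and 0.014 in the Trem2ko mice.

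**Figure D3:**
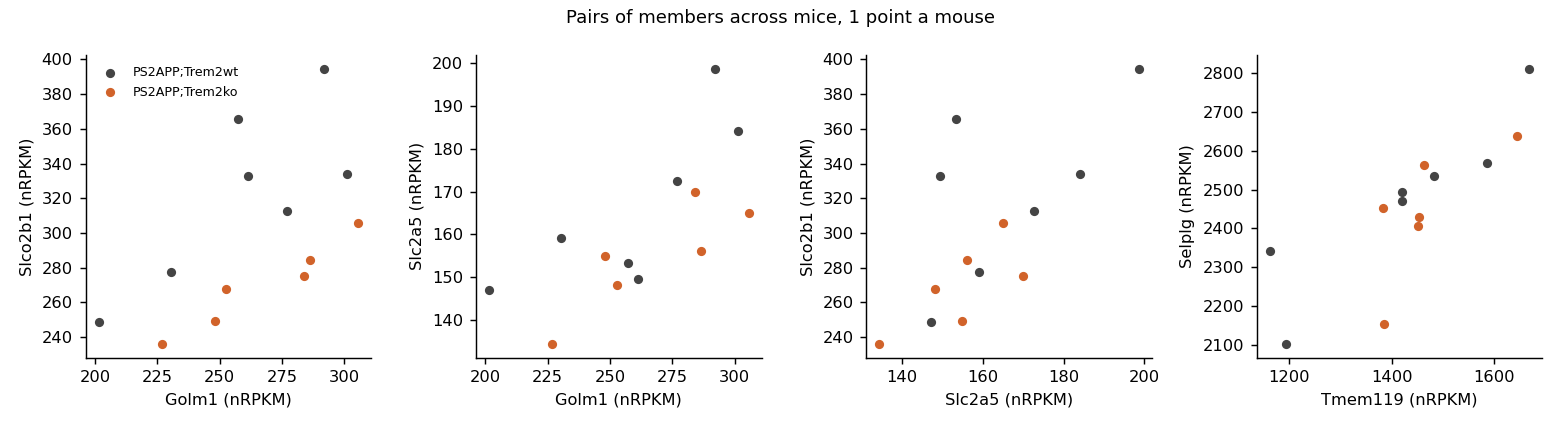
Levels (nRPKM) of Golm1 against Slco2b1, Golm1 against Slc2a5, Slc2a5 against Slco2b1 and Tmem119 against Selplg, 1 point a mouse, grey for the 7 Trem2wt and orange for the 6 Trem2ko mice. In the first panel the Trem2ko mice run from 236 to 306 nRPKM of Slco2b1, and 5 of the 7 Trem2wt mice lie above all of them.

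Members were also set against features of the libraries in 18 relations each, 9 members in both genotypes. After adjustment 0 passed for total counts (smallest adjusted p 0.175), the mean of the plaque-response genes (0.312), summed neutrophil markers (0.577) and summed dissociation-response genes (0.488), all by exact permutation. The lowest unadjusted p was that of Crybb1 with log2 total counts in the Trem2ko mice, r = -0.931 and rho = -0.886 (exact permutation p = 0.00972), and r was -0.657 without 2 mice. In the Trem2wt mice this r was -0.384. The part of depth in the level of Crybb1 was not tested.

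Over all 13 mice, after each gene was centred within its genotype, the mean of the 9 members on the log2 scale was most like Ldlrad4 (r = 0.917), the ribosomal S6 kinase gene Rps6ka1 (0.9) and the fatty acid oxidation gene Acadm (0.899), out of 4005 genes with a mean of 10 nRPKM or more. These are the top values of a long list and are given as a description. The members' own r with their mean, which each is part of, ran from 0.206 (Crybb1) to 0.754 (Selplg).

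The sexes were compared over both genotypes, with 3 males and 10 females. Gpr34, which is X-linked, was at 859.6 and 1017 nRPKM in the 2 Trem2wt males against 1192 to 1522 in the 5 Trem2wt females, and at 1133 in the Trem2ko male against 1212 to 1494 in the 5 Trem2ko females. All 3 males lay below all 10 females. The log2 difference (male minus female, genotype as a covariate) was -0.42 with an SE of 0.10 and an interval from -0.63 to -0.21, and the edgeR p was 0.000777 unadjusted and 0.577 adjusted over all genes. By this fit 0 of 9 members were called, against 0.0234% of all genes in either direction. An unadjusted edgeR p of 0.05 or less was seen for 1 member, Gpr34, and for 6.95% of all genes. Gpr34 was the only member whose sexes did not overlap, against 0.884% of all genes, and it was looked at after its values were seen. In females alone the genotype difference of Gpr34 was -0.03 on the log2 scale (edgeR adjusted p = 0.901).

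The relatives of the members by gene family were compared as well, and none was called between the genotypes. Of 58 relatives 31 were tested, and 4 had an unadjusted edgeR p of 0.05 or less, a level that 14.8% of all genes reached. Each of the 8 members with relatives on the list was the most abundant gene of its family. In the sugar carrier family, Slc2a5 at a mean of 166.4 nRPKM in the Trem2wt mice was followed by Slc2a8 (35.5) and Slc2a1 (28.9), the glucose carrier of most cells. Of 13 organic anion carriers, Slco4a1 came after Slco2b1, at 15.9 nRPKM in the Trem2wt mice and 16 in the Trem2ko mice. Sparcl1 was at 11.2 and 12.6 nRPKM and Olfml2b at 13.1 and 11.6. Among the listed relatives of Gpr34, P2ry10b was the most abundant, at 6.59 nRPKM in the Trem2wt mice and 6.92 in the Trem2ko mice. Gpr82, a relative that lies close to Gpr34 on chromosome X, was at 0.57 and 0.647 nRPKM.

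Crybb1 belongs to a family best known from the lens. Of 14 β- and γ-crystallin genes 4 were tested, and 7, among them Crybb2 and Cryga, had no count in any mouse, which allows at most 3 counts in a library. Besides Crybb1, Cryba4 was at 17, 24.3 and 29.7 nRPKM (lowest, median, highest) in the Trem2wt mice (mean 23.6 ± 5, n = 7) and at 26.8, 28.3 and 32.5 in the Trem2ko mice (mean 28.9 ± 1.93, n = 6). Its log2 fold change was 0.29 with an SE of 0.12 (edgeR adjusted p = 0.282).

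**Figure D4:**
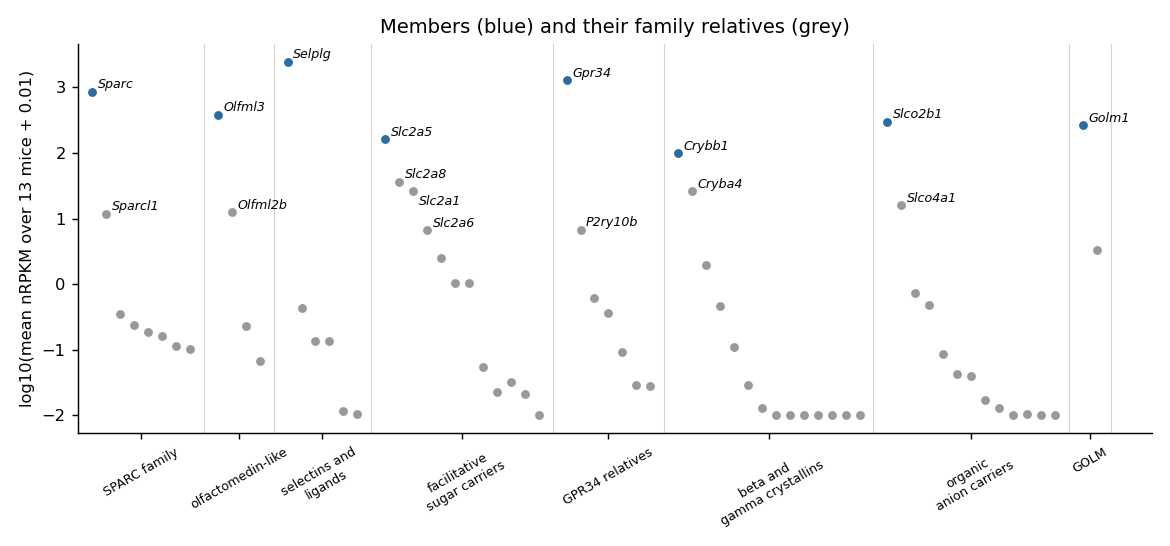
Mean level over 13 mice, log10(nRPKM + 0.01), of the 8 members that have family relatives on the list (blue) and of those relatives (grey), grouped by family and ordered within it by level; points at -2 had no counts or almost none. Each member is the highest point of its family, and Cryba4, at 23.6 and 28.9 nRPKM in the 2 genotypes, is the nearest relative to any member on this scale.

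Genes beside the members in the genome were counted too. Of 122 genes lying wholly within 200 kb of a member 57 were tested, 0 were called lower and 2 higher, with a median log2 fold change of 0.04. Over all genes tested, 1.53% were called lower and 0.503% higher. Slc36a1, a lysosomal amino acid carrier 158170 bases from Sparc, was at 1.94, 3.33 and 4.06 nRPKM in the Trem2wt mice and at 4, 4.58 and 5.83 in the Trem2ko mice, a log2 fold change of 0.62 (SE 0.15, edgeR adjusted p = 0.0386). Dclre1b, a DNA repair nuclease 62604 bases from Olfml3, was at 2.76, 3 and 3.64 nRPKM and at 3.24, 4.49 and 5.12, a log2 fold change of 0.45 (SE 0.10, edgeR adjusted p = 0.0369). The 3 most abundant neighbours were Tpst2 beside Crybb1 (mean 148 nRPKM), Spcs2 beside Slco2b1 (64.9) and Atox1 beside Sparc (64), with adjusted p-values of 0.782, 0.96 and 0.116 by edgeR.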

How the data were processed

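Brain myeloid cells of 13 mice were sequenced with the SMART-seq v4 kit, which does not mark strand, as single-end reads. GSNAP was the aligner and GRCm38 the genome in the submitters' processing notes, and reads were cleaned of adapter and ribosomal sequence first. The authors deposited raw counts per Ensembl gene for 52636 genes, with no normalization. They also deposited nRPKM, an RPKM scaled by size factors. The gene annotation and counting options are not given in the sources used here, so names and coordinates are those of GENCODE M21.

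Counts were tested with edgeR 4.0.16 in R 4.3.3 (filterByExpr by genotype, TMM, glmQLFit, no covariate), and the SE is the log2 fold change divided by the square root of F. Correlations among members and with library features, and their permutation tests, used the members' log2(nRPKM + 0.1) within genotype. The permutation tests between the genotypes used the same values over all 1716 splits of the 13 mice. Alternatives were voom+limma (the study's own method), DESeq2 1.42.0, RLE scaling, other filters and pseudocounts, sex as a covariate, females only, and the loss of each mouse. The fit of sex was added after the data were seen. The scripts were tested on simulated data. Counts per mouse give the depth, from 26120961 to 120569609, and 3 counts were taken as the limit of a count of 0, for counting error only.

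The members and all gene lists were chosen with earlier results of these data known. Named are all members, every gene of the other homeostatic list, families, overlapping genes and neighbours past the threshold, the 3 most abundant of each list, the 3 plaque-response genes of largest change and the 3 genes most like the members' mean. Gpr82, P2ry10b, Crybb2 and Cryga were named after their values were seen. Left out of the lists, 1 gene is not reported here.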

Additional observations from a re-analysis of the deposited data

Results flagged for a closer look

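In 18 groups of mice, 9 genes in both genotypes, 2 held a mouse far from the rest, where chance alone flags about 1 group in 20. Tmem119 in Trem2ko replicate 6, a female, was at 1644 nRPKM, and the next mouse of its group was at 1463, a gap of 0.692 of the group's range (critical value 0.625). The same mouse was the highest of its genotype for 4 of the 9 members. Olfml3 in Trem2wt replicate 2, a male, was at 302.5 nRPKM, and the next was at 392.4, a gap of 0.679 of the range (critical value 0.568). That mouse had the fewest counts, 26120961, and the highest sum of neutrophil markers, 265 nRPKM. It was the lowest of its genotype for 3 members, but so were Trem2wt replicates 1 and 3, each for 3. The part of depth and of neutrophil markers in the Olfml3 level of Trem2wt replicate 2 was not tested. Without Trem2wt replicate 2, the log2 fold change of Olfml3 was -0.17 (edgeR adjusted p = 0.309).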

How the results depend on the processing

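Under 22 alternatives the count of members called stayed at 0. Of 220 values, the log2 fold changes of the 9 members and Cx3cr1, 212 kept their direction and side of the threshold, 8 turned sign while not called and 0 crossed the threshold. Among females only, Gpr34 was at -0.0314 and Golm1 at -0.00209. Leaving out each mouse gave ranges across 0 for Golm1 (-0.0183 to 0.0817), Gpr34 (-0.00803 to 0.119), Tmem119 (-0.00391 to 0.0819) and Selplg (-0.0601 to 0.0136), with the cause not tested. Crybb1 ranged from 0.161 without Trem2wt replicate 3 to 0.353 without Trem2wt replicate 1. TMM and RLE scaling put the median of all genes at 0.00389 and 0.00618. No paired analysis was possible because the labels do not say which mice belong together. By the study's methods a mouse of each genotype was usually handled alongside the other up to sorting, and the SEs and p-values here take no account of such pairs. P-values over 7 and 6 mice can miss small changes, and the intervals give the sizes that remain possible.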
